A study of Drosophila melanogaster with 4 samples.

Results

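The cytosolic ribosomal protein genes encode the protein subunits of the ribosomes that translate nuclear messenger RNAs. They were taken as the genes whose FlyBase symbol begins with RpL (large subunit) or RpS (small subunit) followed by a digit or P, which leaves out the mitochondrial ribosomal proteins. The reference names 92 such genes, and 81 of them had at least 1 splicing event in the deposited tables. The 11 without an event were RpL10Aa, RpL13, RpL15, RpL24-like, RpL37-2, RpLP2, RpS10a, RpS15Ab, RpS28-like, RpS28a and RpS7. RNA sequencing of whole Drosophila melanogaster larvae compared the wild type strain Oregon R with larvae of the genotype SmnX7/D, which carry mutations in Smn. Each group had 2 libraries of polyadenylated RNA, from larvae collected at 74 ± 2 h after egg laying and kept at 24 ± 1 °C. Strain background and Smn genotype cannot be told apart in this design. The p-values rest only in part on the spread between the 2 libraries of each group, which may be technical.

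Smn protein helps to assemble the small nuclear ribonucleoproteins that form the spliceosome. Ribosomal protein transcripts are among the most abundant in growing larvae, and each ribosome holds its subunits in fixed proportion. Many fly ribosomal protein genes are short, with few introns, and several carry small nucleolar RNAs inside their introns. An intron that stays in the transcript is called retained. For each event the tables give read pairs that fit only the retained form and read pairs that fit only the spliced form, and the retention ratio below is the first over the second on a log2 scale.

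The 81 genes had 275 retained intron events. Of these, 185 were annotated introns and 90 were stretches that the reference does not annotate as introns, many of which lie within ordinary exons. The annotated introns followed the usual splice site rule, with 184 of 185 beginning with GT and ending with AG in the dm6 reference. The first 6 intron bases were GTAAGT in 19.5% of them and in 20.4% of the other annotated introns with an event, searched on the transcribed strand. The splice sites of introns that the results turn on are shown here from RefSeq's dm6 genome, with the last 3 exon bases and first 8 intron bases at the 5′ site, the last 20 intron bases at the 3′ end, and the terminal intron dinucleotides in capitals. The RpS21 intron is shown whole, because it had the smallest adjusted p among the ribosomal protein events.
RpS21 intron 4: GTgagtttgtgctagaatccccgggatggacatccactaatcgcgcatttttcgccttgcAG
RpS27A intron 2, 5′ site: aagGTacacac
RpS27A intron 2, 3′ end: atgctctttcctttccatAG
RpS19a intron 1, 5′ site: aagGTtgtgca
RpS19a intron 1, 3′ end: ttttcccgttctgcccgcAG
RpLP1 intron 1, 5′ site: accGTaagttt
RpLP1 intron 1, 3′ end: ttattttttggattcaccAG
RpS29 intron 1, 5′ site: ctgGTaagaat
RpS29 intron 1, 3′ end: atataccatctcattttcAG
RpS29 intron 2, 5′ site: aagGTgagtcc
RpS29 intron 2, 3′ end: taatatcattcgttttttAG

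Retention of annotated ribosomal protein introns was higher in the mutants. Of the 185 annotated introns, 62 in 46 genes had enough pairs of both forms to be tested, and 24 in 22 genes rose at an adjusted p under 0.05 by limma, while 0 fell. Over all 3302 retained intron events tested, 12.1% passed the same threshold, 11% with higher and 1.09% with lower retention in the mutants. The median log2 change was 1.69 over the 62 annotated introns and 0.55 over all tested events, so the whole set of events was shifted in the same direction. Testing required a mean of at least 10 pairs of each form over all 4 libraries. Introns with few retained pairs in wild type thus entered only where the mutants had more. The calls and medians of tested introns, here and in other genes, come from events so selected. Without that minimum, 2 of 213 ribosomal protein events and 45 of 11481 in all were called, with median log2 changes of 1.07 and 0.59. Over all 101 tested ribosomal protein events, unannotated ones included, the median was 1.13, and it was 0 when the authors' rounded fractions were used on a logit scale, where that of all events was 0.43. Among the 150 annotated introns with at least 20 pairs in every library, both mutants lay above both wild type libraries in 104 and below both in 8, against 42.8% and 11.9% of all such events. A narrower comparison took tested introns between the quartiles of the ribosomal protein introns' mean log2 ratio over all 4 libraries, -8.14 and -3.33. There 14 of 30 ribosomal protein introns and 15.7% of 432 other annotated introns were called, with median log2 changes of 1.84 and 0.95. That mean includes the mutants, and depth was not matched. The comparison thus does not remove the selection described above.

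At the median annotated intron, retained pairs remained a small part of the isoform-specific pairs. Introns of RpS21 and RpS19a, described below, were exceptions. The median share of retained pairs over the 150 covered introns was 0.181% and 0.107% in wild type replicates 1 and 2, and 0.515% and 0.385% in the mutants. Summed over all 185 introns, retained pairs were 4.33% and 4.06% of isoform-specific pairs in wild type and 4.72% and 3.90% in the mutants. The summed shares of the groups overlap, whereas the medians over introns do not. The sums held 18406 and 19493 retained pairs in wild type and 22794 and 18741 in the mutants. Of these, RpS3A alone held 10696 and 11729 in wild type and 9163 and 7600 in the mutants, so 1 gene weighs heavily in the summed shares. Retained-specific pairs also depend on intron length, so these shares are not fractions of molecules.

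**Figure D1:**
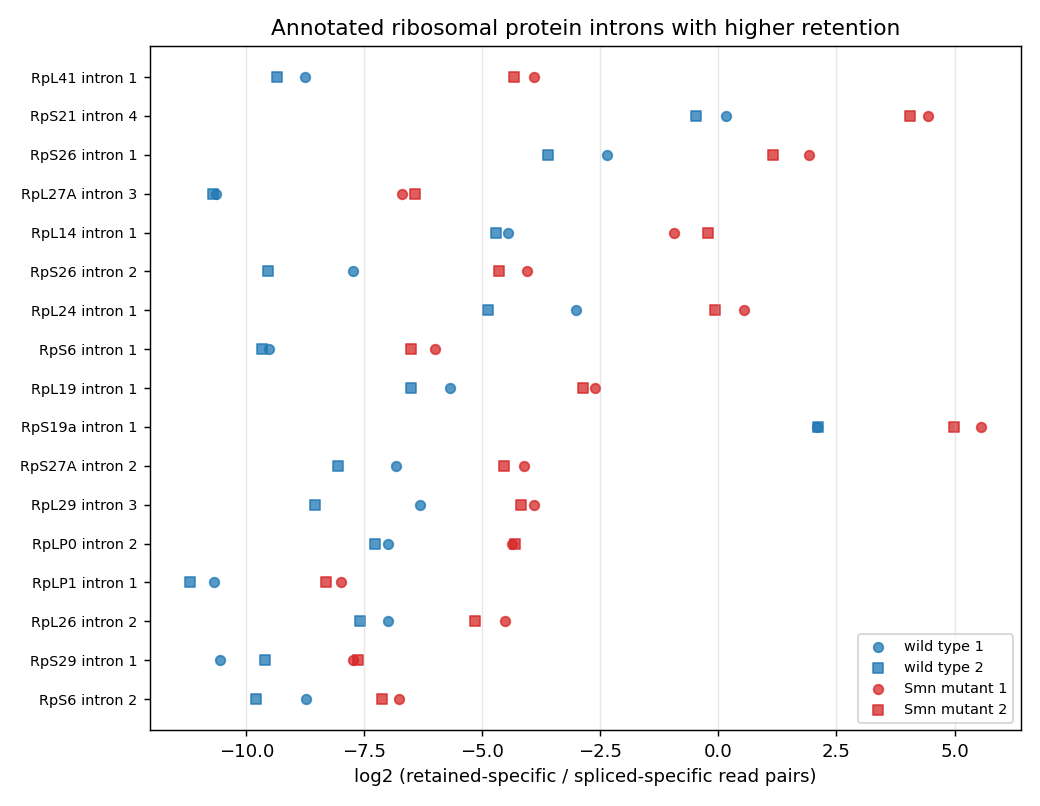
Log2 ratio of retained-specific to spliced-specific read pairs (x axis) for the 17 annotated ribosomal protein introns called higher in the mutants with a log2 change over 2 (y axis), with blue for the 2 wild type and red for the 2 Smn mutant libraries, each point being 1 library. Both mutant libraries lie to the right of both wild type libraries for each of these introns, and the introns were chosen by that difference.

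Among the small subunit genes, RpS21 had the largest rise in retention. Its intron 4 (dm3, chr2L:2856569-2856630, coding) had 555 and 560 retained pairs in wild type and 1727 and 1795 in the mutants, while spliced pairs were 498 and 783 in wild type and 79 and 107 in the mutants. Retained pairs were higher and spliced pairs lower in both mutants with no overlap, and the log2 ratio rose by 4.42 (SE 0.31, adjusted p = 0.00296 by limma). The authors' fractions for the retained form were 0.25 and 0.17 in wild type and 0.79 and 0.75 in the mutants. RpS19a intron 1, in the 5′ UTR (dm3, chrX:16531961-16532265), had 70 and 62 retained pairs in wild type and 589 and 430 in the mutants, against 16, 14, 12 and 13 spliced pairs. Spliced pairs of that intron were thus similar in all 4 libraries while the log2 ratio rose by 3.17 (SE 0.46, adjusted p = 0.0158 by limma).

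RpS27A encodes a ubiquitin fused to a small subunit protein. Its intron 2 (dm3, chr2L:10410052-10410240) had 69 and 37 retained pairs in wild type and 603 and 378 in the mutants, with 7867 to 10408 spliced pairs in each library. The log2 ratio rose by 2.97 (SE 0.40, adjusted p = 0.0126 by limma), and the retained pairs of the groups did not overlap. RpS26 had 2 introns called, with log2 changes of 4.31 and 3.87, which share a 3′ end and therefore largely the same retained pairs. RpS6, whose protein is a target of growth signalling kinases, rose at both of its introns, by 3.38 and 2.11. RpS16 and RpS29 rose by 1.86 and 2.17. Over a gene's annotated introns, wild type retained pairs were few in RpS6 (15 and 7), RpS16 (27 and 20) and RpS29 (4 and 13).

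Among the large subunit genes, RpL41 intron 1 had 5 and 4 retained pairs in wild type and 74 and 55 in the mutants, a log2 change of 4.94 (SE 0.61, adjusted p = 0.0106 by limma). RpL27A intron 3 had 1 retained pair in each wild type library and 33 and 39 in the mutants. The folds of both introns rest on few wild type pairs, and on very few in RpL27A. RpL14, RpL24 and RpL19 rose by 3.96, 3.67 and 3.30. RpL29, RpL26, RpL28, RpL18, RpL10Ab, RpL3 and RpL30 rose by 2.84, 2.44, 1.97, 1.82, 1.70, 1.32 and 1.12. Several of these folds also rest on few wild type pairs. Over a gene's annotated introns, retained pairs in wild type were 16 and 11 in RpL14, 5 and 2 in RpL24 and 14 and 11 in RpL19. They were 13 and 6 in RpL29 and 10 and 6 in RpL26, but 276 and 199 in RpL3. With the unannotated events included, 34 of 101 were called; the count was 17 without mutant replicate 1, 21 without mutant replicate 2 and 2 when no minimum mean was set.

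The P stalk is the part of the large subunit that recruits translation factors, and is built from RpLP0, RpLP1 and RpLP2. RpLP1 intron 1 had 4 and 3 retained pairs in wild type and 50 and 38 in the mutants, with 7401 to 12889 spliced pairs, and its log2 ratio rose by 2.78 (adjusted p = 0.0407 by limma). RpLP0 intron 2 had 5 and 4 retained pairs in wild type and 25 and 23 in the mutants, and rose by 2.78 (adjusted p = 0.0298 by limma). Both introns reached the minimum mean of 10 retained pairs only through the mutants. RpLP2 had no event.

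Introns called higher lay in each transcript region. In the 5′ UTR 7 of 16 tested introns were called higher, in the coding region 16 of 44 and in the 3′ UTR 1 of 2. Among other annotated introns these counts were 97 of 686, 203 of 1983 and 5 of 49. Of introns that hold a small nucleolar RNA 6 of 19 were called higher, and of those without one 18 of 43. For other annotated introns they were 4 of 15 and 302 of 2717. Large subunit genes had 14 of 35 and small subunit genes 10 of 27, against 306 of 2732 other annotated introns. None of the 5 tested introns over 1000 bases was called, where 140 of 1368 others were called higher and 21 lower. The differences between these classes were not tested.

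The 39 tested events that are not annotated introns gave 9 higher and 1 lower calls, with a median log2 change of 0.25. The smallest log2 changes of any tested event were -1.38 in RpS16, -0.68 in RpL9, -0.62 in RpS25 and in the annotated RpL22 intron, and -0.59 in RpL27A. The one called lower was a stretch of 210 bases in RpS25 (log2 change -0.62, adjusted p = 0.0235 by limma). Those called higher included events in RpL36A, RpS3A, RpL11, RpL3 (2 events), RpL30, RpS18 and RpS25. The retained form of such an event is often the ordinary exon, so a higher ratio there means fewer pairs of a rare splice within it.

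With all 4 libraries, no difference in the level of spliced transcripts of these genes passed the test. Of 182 ribosomal protein introns tested for spliced pairs scaled to their total in each library, 0 passed an adjusted p of 0.05 by limma, against 0.191% of 9957 over all genes. At an unadjusted p under 0.05 there were 36, where 24.9% of all introns passed, and limma's voom gave 0 calls among these introns and 0 among all 9957. With 1 wild type library left out the count was 112 without replicate 1 and 79 without replicate 2, where 5322 and 3663 introns were called in all. Ribosomal protein genes held 19.1% and 28.8% of all spliced pairs in wild type replicates 1 and 2 and 21.0% and 21.4% in the mutants. The mutants thus lay between the wild type libraries, and 73 of the 81 genes were higher in wild type replicate 2 than in replicate 1. The median log2 change over the 182 introns was -0.20, against 0.24 over all introns; without wild type replicate 2 it was 0.10, and without replicate 1 -0.47. The largest fitted log2 differences of single introns on the lower side were -3.02 in RpL39, -2.98 in RpS21 and -2.13 in RpL14. On the higher side they were 1.81 in RpL7A, 1.80 in RpL12, 1.77 in RpL27 and 1.51 in RpS13. All had adjusted p of 0.0956 or more by limma. An intron's change was not always that of its gene. Scaled pairs summed over a gene's annotated introns changed by -0.19 in RpL7A, 0.05 in RpL12 and -0.29 in RpL14. They changed by -1.70 in RpL39, -1.21 in RpS21, 1.79 in RpL27 and 1.02 in RpS13. Introns of RpL26, RpL29, RpL37A, RpS6 and RpL35 were the nearest to no difference.

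Summed over annotated introns, the most spliced pairs were found in RpS5a, RpS15, RpL13A, RpL10 and RpS9, and the fewest in RpL22-like, RpL27, RpS19b, RpS5b and RpL7-like. These sums depend on the number and flanks of the introns with an event, so they do not rank the genes by expression. RpS9 had 13839 and 19597 pairs in wild type and 8863 and 7954 in the mutants. In whole larvae, fewer cells that express a gene and less RNA per cell cannot be told apart.

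**Figure D2:**
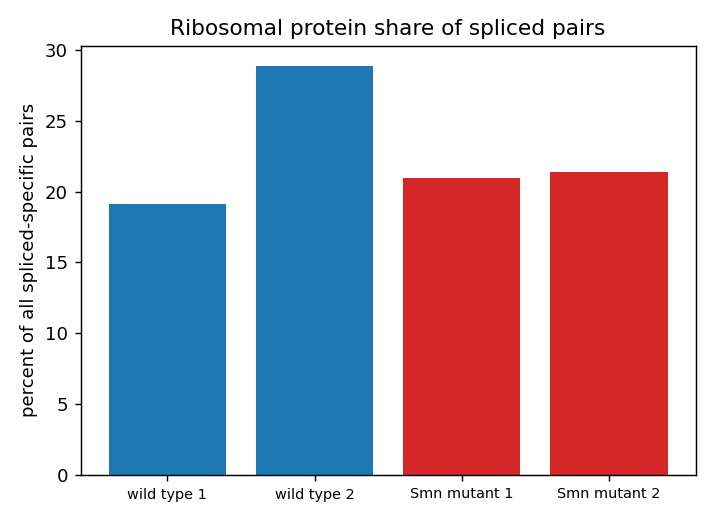
Percent of all spliced-specific read pairs of retained intron events that fell in ribosomal protein genes (y axis, from 0) in each of the 4 libraries (bars, 1 library each). Wild type replicate 2 stands at 28.8%, above the other libraries at 19.1% to 21.4%.

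The summed pairs of some tissue marker lists differed between the groups. The larval fat body list held 3.97% and 2.75% of all spliced pairs in wild type and 0.433% and 0.501% in the mutants, although its 9 introns had a median log2 change of only -0.30 with 1 called. That list was split. An intron of Lsp1beta had 28377 and 10213 spliced pairs in wild type and 1525 and 1791 in the mutants, and one of Lsp1gamma 26874 and 11012 against 507 and 1049. An intron of apolpp had 3163 and 1334 in wild type and 3721 and 3850 in the mutants, and the other apolpp introns called for retention overlapped between the groups. The muscle list held 1.78% and 1.09% in wild type and 4.25% and 2.48% in the mutants, with 0 of 42 introns called. The midgut list held 0.988% and 1.12% in wild type and 0.621% and 0.691% in the mutants. The nervous system list held 0.012% to 0.026%, and the germline and testis list at most 0.000577%. The part of tissue composition in the ribosomal protein results was not tested.

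The balance between introns of a gene also differed between the groups. In 42 ribosomal protein genes the spliced pairs of the last annotated intron could be set against those of the first with enough pairs, a ratio that does not depend on the level of the gene. The ratio rose in 20 genes and fell in 19 at an adjusted p under 0.05 by limma, against 33.4% of 2065 genes called in all, 13.9% with a higher and 19.4% with a lower ratio. RpS6, RpL31 and RpLP0-like did not pass. Without the counting weights 21 of the 42 genes were called, 14 higher and 7 lower. Ribosomal protein genes are deeply covered, and among genes with at least 300 pairs of both introns in every library 26 of 28 ribosomal protein genes and 74.6% of 67 others were called. The median absolute log2 change among those deep genes was 0.76 for ribosomal protein genes and 0.50 for the others. This comparison was added after the data had been seen.

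**Figure D3:**
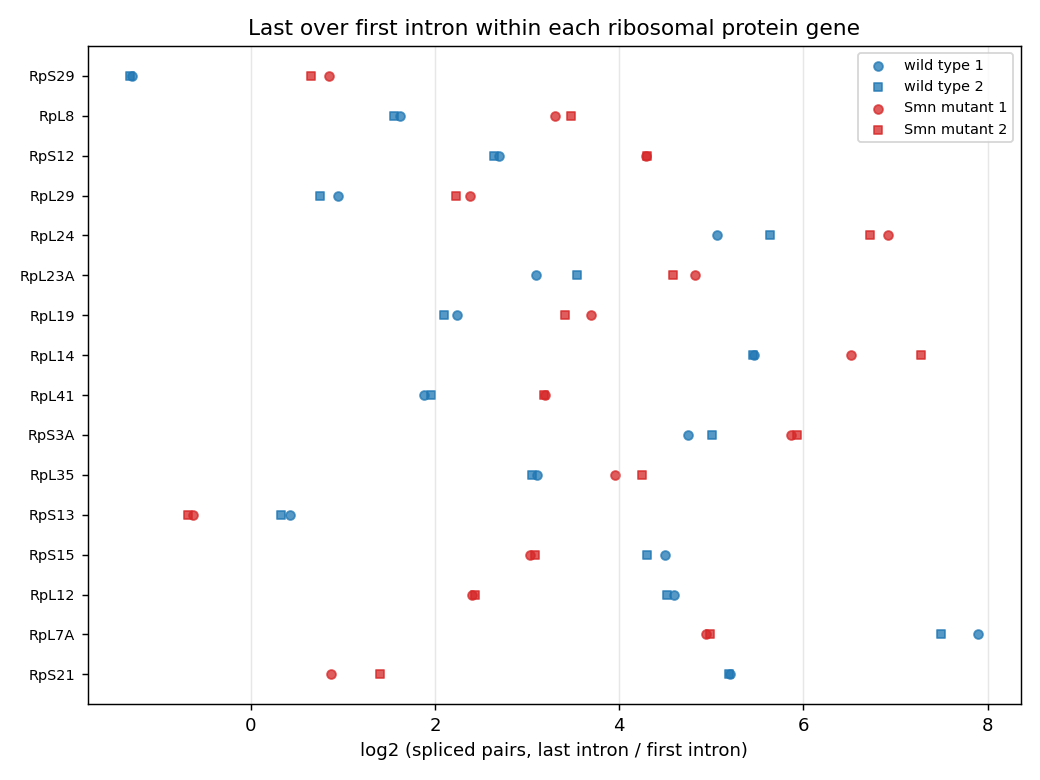
Log2 ratio of spliced pairs of the last to the first annotated intron (x axis) in the 16 ribosomal protein genes whose fitted log2 change exceeded 1 in size (y axis, ordered by that change), with blue for wild type and red for Smn mutant libraries, each point being 1 library. The 2 libraries of a group differ by at most 0.57 log2 units in wild type and 0.76 in the mutants among these genes, and the mutants lie to the left in the lower genes and to the right in the upper ones.

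RpS29, a small subunit protein gene, had the greatest rise. Its first intron (dm3, chr3R:5603919-5604340) had 6756 and 9709 spliced pairs in wild type and 3102 and 3264 in the mutants, whereas its second (dm3, chr3R:5604441-5604498) had 2757 and 3921 in wild type and 5584 and 5125 in the mutants. The first intron had fewer and the second more pairs in both mutants as counted, though with pairs scaled to library totals the second intron of the groups overlaps. The ratio rose by 2.05 (SE 0.05, adjusted p = 6.55e-16 by limma). The SD of the ratio between libraries was 0.011 in wild type and 0.139 in the mutants. The p-values of these ratios draw on counting weights and on variance shared across genes, besides the 2 libraries of each group. They do not measure the spread between libraries alone. The ratio rose by 1.81 in RpL8 and by 1.62 in RpS12, and by between 1.02 and 1.47 in RpL35, RpS3A, RpL41, RpL14, RpL19, RpL23A, RpL24 and RpL29. Rises of 0.31 to 0.92 were called in RpS16, RpS9, RpL3, RpL22, RpL18, RpL5, RpL36, RpL27A and RpL37-1. RpL23A shares its locus with the small nucleolar RNA host Uhg7, and its reads may be split between them.

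RpS21 had the greatest change in the other direction, where the ratio fell by 4.05 (SE 0.35, adjusted p = 9.36e-08 by limma), between its last spliced intron, described above, and an earlier one with 13 and 21 pairs in wild type and 43 and 40 in the mutants. RpL7A fell by 2.70, with 27 and 35 pairs of the first usable intron in wild type and 136 and 118 in the mutants, and 6546 and 6395 against 4198 and 3762 of the last. RpL12 fell by 2.14, and its first usable intron had 178 and 155 pairs in wild type and 658 and 689 in the mutants. RpS15 and RpS13 fell by 1.33 and 1.04, and smaller falls, of at most 0.85, were called in genes that included RpL10, RpL23, RpS18, RpL37A, RpL28, RpS5a, RpL4, RpL7, RpS4, RpL13A and RpL9. RpS13 had more pairs of both introns in the mutants, 2279 and 1862 against 6552 and 7127 of the first and 3065 and 2342 against 4242 and 4446 of the last.

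Among other forms of alternative splicing, few events could be tested. Of 26 tested events, 2 skipped exons, 1 alternative 3′ site and 23 alternative 5′ sites, 1 passed by limma, where 6.47% of all 433 tested alternative 5′ sites (0.924% with a lower ratio) and 0 of 210 skipped exons and 36 alternative 3′ sites did; 9 of the 26 had an unadjusted p under 0.05. In 15 of the 23 alternative 5′ sites the mutants exceeded wild type with no overlap, and in 1 they were lower with no overlap, against 50.8% and 12.7% of all tested ones. The 23 lie in 12 genes, and several events of RpL27 and of RpL17 share nearly all pairs of 1 form, so they are not independent. The event that passed was in RpL22 on chromosome X, where a longer exon ends at 657474 in place of 658335 (dm3). The longer form had 537 and 353 pairs in wild type and 314 and 290 in the mutants, and the shorter form 3571 and 2234 in wild type and 5155 and 5895 in the mutants. The log2 ratio fell by 1.48 (SE 0.12, adjusted p = 0.0173 by limma), but a long noncoding RNA is annotated over the same event, so the assignment is uncertain. The call was lost without either wild type library and with the replicate block, and also without weights and with no minimum mean, where 0 events of any gene were called. RpL30, RpLP0 and RpS3 had alternative 5′ sites with changes of 0.80, 2.58 and 2.46 and adjusted p of 0.05 (rounded, not under the threshold), 0.0657 and 0.0981 by limma. The skipped exons in RpL3 and RpS5a and the alternative 3′ site in RpL30 had adjusted p of 0.2, 0.259 and 0.485.

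By the authors' Bayes factors, 6 of the 362 events in ribosomal protein genes differed by at least 0.2 in fraction, with the same sign whichever wild type library was paired with whichever mutant, against 0.72% of all events. The fraction was higher in the mutants for 2 overlapping RpS21 events and for RpS19a, RpL14 and RpL22, and lower for RpL40, another ubiquitin fusion gene, where it was 0.58 and 0.59 in wild type and 0.16 and 0.15 in the mutants. The RpL40 stretch (dm3, chr2L:4228478-4228539) is not an annotated intron and had 0 spliced-specific pairs in every library, as had the RpL14 event and 1 of the RpS21 events, so those fractions rest on the retained-specific and shared pairs alone.

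Several paralogs had few spliced pairs beside their partners. RpL22-like had 9, 7, 22 and 14 spliced pairs in wild type replicates 1 and 2 and mutant replicates 1 and 2, where RpL22 had 3806, 2360, 5322 and 6151. RpS5b had 24, 73, 64 and 55 where RpS5a had 13964, 12388, 18642 and 18777, and RpS19b had 16, 53, 44 and 41 where RpS19a had 1621, 1154, 1290 and 1386. RpS14a and RpS14b, which are close copies, had 2518, 2927, 2507 and 2566 and 1469, 1832, 1826 and 2110. Reads of such copies can be split or shared in alignment, so these levels are uncertain.

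In the authors' deposited table of exon usage, 350 exon bins of ribosomal protein genes were tested between mutants and wild type, and 83 in 37 gene groups passed an adjusted p of 0.05, against 2.99% of all 52485 bins. Of these, 49 were higher and 34 lower in the mutants, where 1.52% and 1.47% of all bins were. Bins with a mean normalized count of at least 1000 give a closer background, since 25.3% of such ribosomal protein bins and 23.3% of 1444 other such bins were called. The share of called bins was thus near that of other bins of like abundance. The fold changes were small, with a median absolute log2 fold of 0.14 among the called bins.

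Bins that are a small part of their gene held more higher than lower calls, in ribosomal protein genes as in other genes. Of 113 tested bins whose mean was under 10% of the highest bin of their gene, 20 were called higher and 5 lower in the mutants. Of the 237 remaining tested bins 29 were called higher and 29 lower. Outside the ribosomal protein genes 164 of 8015 such rare bins were called higher and 63 lower, and of the 44120 remaining bins 587 higher and 674 lower. In the authors' deposited table the log2 fold was 1.54 for bin 6 of RpL7A, 1.51 for bin 4 of RpS15Aa, 1.39 for bin 3 of RpS14a, 1.37 for bin 4 of RpL9 and 1.22 for bin 4 of RpS19a. In RpS21 the authors' deposited table has bin 4 higher by 0.91 and bin 5 at -0.81. The bins carry no coordinates, so they could not be laid on the introns above.

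**Figure D4:**
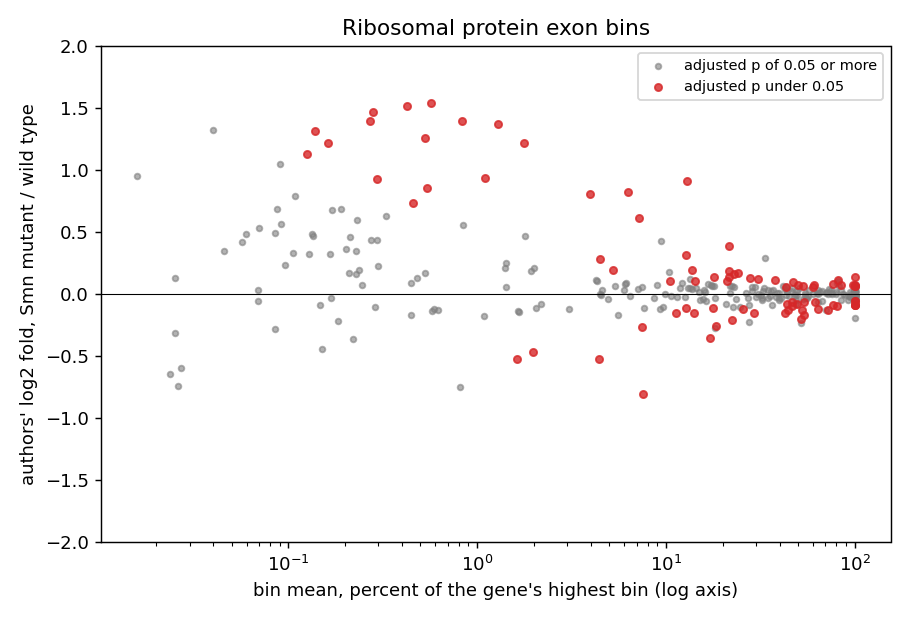
The authors' log2 fold of exon bin usage, Smn mutant over wild type (y axis), against the mean of the bin as a percent of the highest bin of its gene (x axis, log scale), for ribosomal protein bins with an adjusted p, red where it is under 0.05. The red bins on the left, where the bin is a small part of its gene, are mostly above 0, and 1 bin that was not called lies outside the plotted range of 2 log2 units.

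Few bins were called between normal stages, in these genes as over all genes. The stage comparisons use other libraries than the mutant comparison, so their numbers of calls cannot be compared directly. In the authors' deposited tables for published libraries, 4 of 338 ribosomal protein bins were called between puff stage 1-2 of the third instar (3 libraries) and the second instar (2 libraries), against 1.03% of all bins, and 6 of 335 between that puff stage and the third instar at 12 h (2 libraries), against 0.638%. Among bins with a mean normalized count of at least 1000, 0.599% of ribosomal protein bins and 3.69% of others were called in the first comparison, and 1.27% and 3.85% in the second. The stage comparisons share the puff stage libraries. The bins called were in RpL10Ab, RpS20 and RpL10 in the first, and included bins of RpL10, RpL27 and RpS18 in the second. Bin 6 of RpL10, a large subunit protein, was lower in all 3 authors' deposited tables, with log2 folds of -0.26 in the mutants, -0.30 against the second instar and -0.50 against the third instar at 12 h.

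Related gene lists had few introns to test. Of 20 tested introns of elongation and other translation genes 4 were called higher and 1 lower, with a median log2 change of 0.70. The largest fitted change, 5.74, was in an intron of pAbp, the poly(A) binding protein, and rests on 1 retained pair in each wild type library. Mitochondrial ribosomal proteins had 2 tested introns and 0 calls, nucleolar assembly genes 3 and 1, and the small nucleolar RNA hosts had none tested. The larval fat body list had 5 of 7 tested introns called higher, with a median change of 2.37. Retained pairs of Lsp1beta were 33 and 1 in wild type and 31 and 13 in the mutants. Those of Lsp1gamma were 46 and 1 in wild type and 48 and 26 in the mutants. Retained pairs of these introns thus overlapped between the groups, with 1 pair in wild type replicate 2, while their spliced pairs fell as given above. The remaining calls were all in apolpp.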

How the data were processed

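Reads were aligned by the authors with TopHat 2.0.8 and Bowtie2 2.1.0 to dm3, and events were scored with MISO 0.4.8, per the submitters' processing notes. The deposited MISO tables give each isoform's fraction (rounded by the authors), a Bayes factor, which is a ratio of evidence, and read pairs per class of isoform compatibility. The deposited exon usage tables, for which the authors used Samtools 0.1.19 and DEXSeq (1.0.2 or a later version), give a log2 fold, a p-value and a mean normalized count, a signal averaged over libraries. Total spliced pairs were 1733986 to 2355707 per library.

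Log2((retained + 0.5)/(spliced + 0.5)) was modelled by group in R 4.3.3 using limma 3.58.1 with counting weights and Benjamini-Hochberg adjustment over each event type, for events with at least 20 isoform-specific pairs in every library and a mean of at least 10 of each form. Such weights cover counting error only. Introns needed 20 or more spliced pairs in 2 or more libraries, and these pairs were divided by the library's total and fitted with limma's trend option. The smallest two-sided p of an exact permutation test over 2 against 2 libraries is 0.33. Fits were tested on simulated data. Events were matched to genes of the dm6 reference by intron and exon lengths, and coordinates printed are dm3 from the event names. Exon bin identifiers of 11 members were not matched and are not analysed here. The rule for named genes was members past a threshold, the introns with the largest and smallest changes, the P stalk, paralogs and members with other tested events. Called exon bins are named only for the largest folds, and results for some members are not reported here by name. The members and lists were chosen with earlier results of these data known. Same-numbered libraries did not deviate together across introns (correlation 0.038 for the retention ratio and -0.0162 for spliced pairs), which cannot exclude pairing.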

Additional observations from a re-analysis of the deposited data

How the results depend on the processing

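Of 81 alternatives over 10 results, 57 stayed within 1.5 times the count or within the spread between replicates. The 34 called retained events became 2 with no minimum mean, and 17 to 49 when 1 library was left out. Without mutant replicate 1 they were 17 and without mutant replicate 2 they were 21. Their median log2 change of 1.13 was 0 from the authors' fractions, 1.69 over annotated introns alone, and 0.92 to 1.51 with 1 library left out. The 0 spliced calls became 2 with a replicate block and 0 to 112 with 1 library left out: 112 without wild type replicate 1, 79 without wild type replicate 2, where the lone wild type library is assumed to vary like the mutants. The spliced median was -0.44 with median ratio scaling and -0.47 to 0.10 with 1 library left out, turning positive without wild type replicate 2. The 1 alternative splice call, RpL22, became 0 with no minimum mean, without weights or with the replicate block, 2 with a pseudocount of 1, and 0 to 2 with 1 library left out. The 39 within-gene calls became 21 without weights, and 39 with the replicate block. The 6 Bayes factor calls became 13 at a difference of 0.1, and 7 to 9 with 1 library left out. At an adjusted p under 0.01 the 4 and 6 stage bins became 1 and 2. The cause of these differences was not tested. The replicate block gave 27 retained calls. Over all genes the block changed retained calls from 400 to 283 and spliced calls from 19 to 328. The replicate numbers come from the labels. The correlations of 0.038 and -0.0162 rest on 1 difference between replicates per group, so they cannot exclude pairing. The within-gene ratio and the variance trend were chosen after seeing the data.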
